A study of Mus musculus with 43 samples.

Results

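The results concern 10 immediate early genes, Fos, Fosb, Jun, Junb, Egr1, Ier2, Atf3, Nr4a1, Dusp1 and Zfp36, chosen by name out of the 55416 genes counted in each library. All 10 were found in every one of the 43 libraries and passed the low-count filter in every comparison. The libraries were made from microglia, oligodendrocyte precursor cells (OPCs), oligodendrocytes and astrocytes, taken from the cerebral cortex of 3-month-old mice by immunopanning, in which cells stick to plates coated with an antibody to a surface protein. Each of 6 littermate pairs held 1 Rag2-/- mouse, which cannot make mature T or B cells, and 1 immunocompetent mouse, which was Rag2+/- in pairs 1, 2, 3 and 5 and Rag2+/+ in pairs 4 and 6. Both mice were male in pairs 1, 3 and 4 and female in pairs 2 and 5. Pair 6 held a male immunocompetent and a female Rag2-/- mouse. Microglia and astrocytes came from 6 immunocompetent and 6 Rag2-/- mice, OPCs from 6 and 5, and oligodendrocytes from 4 and 4 (pairs 1, 3, 5 and 6). The Rag2 deletion is a germline one, carried by every cell of the animal, and all groups shared the same perfusion, digestion and panning. A library is a bulk sample, in which fewer cells of a type and less RNA per cell cannot be told apart.

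Immediate early genes are transcribed within minutes of a stimulus by transcription factors that are already in the cell, chiefly SRF with its ELK and MRTF partners and CREB, which are switched on by MAP kinases and calcium. Most of the proteins they encode are transcription factors that start a second wave of genes, while others end the response by removing phosphates from kinases or by hastening mRNA decay. Enzymatic digestion and handling of living tissue are known to raise these transcripts, so in purified brain cells they are read as a trace of the isolation as well as of the tissue. Here the cortex was digested for 45 min with papain at 34.5 °C, and the same suspension then passed over plates in a fixed order, for 10 min each by the labels and in part longer by the study's methods, so that the minutes given here are the shortest. Microglia were taken on the first 3 plates (CD45), OPCs on the next (PDGFRα, 30 min of plates before it), oligodendrocytes after 6 plates (GalC, 60 min) and astrocytes on the last plate (HepaCAM, 80 to 90 min). The question was whether the early response follows this order, the cell type or the genotype. Cell type, place in the order and sequencing lane (1 lane per cell type) cannot be told apart in this design.

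The starts of 5 members are shown because these genes took different courses across the cell types and because letters of known early-response elements were found in each. The RefSeq promoter table (GRCm38.p6) held 8 of the 10 genes, and these windows were placed in GRCm39 by exact match. The 150 bases before the RefSeq start site are given here on the strand of the gene. Capitals mark TGACG (the core of the CREB site, here also counted as CGTCA on the other strand), TGACGTCA (the full CREB site, which contains TGACG on both strands), the CArG box bound by SRF, GCGNGGGCG (the site of EGR proteins, on either strand) and TATAAA. They are Fos at chr12:85520514-85520663 (plus strand), Atf3 at chr1:190915531-190915680 (minus), Nr4a1 at chr15:101164577-101164726 (plus), Dusp1 at chr17:26727447-26727596 (minus) and Zfp36 at chr7:28078654-28078803 (minus).
Fos: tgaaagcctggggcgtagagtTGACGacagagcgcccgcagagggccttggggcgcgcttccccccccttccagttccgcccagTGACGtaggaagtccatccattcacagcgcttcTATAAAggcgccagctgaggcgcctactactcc
Atf3: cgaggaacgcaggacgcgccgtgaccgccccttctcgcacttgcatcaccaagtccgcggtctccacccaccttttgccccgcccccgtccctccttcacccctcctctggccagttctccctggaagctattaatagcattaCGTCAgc
Nr4a1: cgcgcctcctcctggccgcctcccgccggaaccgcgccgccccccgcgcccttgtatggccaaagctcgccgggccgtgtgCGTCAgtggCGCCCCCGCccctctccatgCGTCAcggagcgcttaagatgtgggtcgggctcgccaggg
Dusp1: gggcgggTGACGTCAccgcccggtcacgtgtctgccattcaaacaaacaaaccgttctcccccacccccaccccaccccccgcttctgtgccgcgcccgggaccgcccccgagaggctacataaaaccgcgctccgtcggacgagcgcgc
Zfp36: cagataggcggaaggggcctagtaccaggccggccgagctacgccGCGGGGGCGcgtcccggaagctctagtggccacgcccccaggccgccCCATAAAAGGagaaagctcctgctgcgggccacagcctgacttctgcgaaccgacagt

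In the 300-base windows (250 bases before and 50 after the start), TGACG was found in 6 of the 8 members, Fos, Fosb, Junb, Atf3, Nr4a1 and Dusp1, and in 20.8% of the 32851 windows of the table. The full site TGACGTCA was found in Dusp1, against 1.79% of all windows. Zfp36 held the CArG box, which 1.63% of all windows held, and GCGNGGGCG stood in Fosb, Nr4a1 and Zfp36 against 5.55% of all. TATAAA lay 33 bases before the start of Fos and at the start of Junb, against 8.32% of all windows. TGANTCA, the site of the Fos and Jun proteins, was in none of the 8 and in 7.81% of all. These are matches of letters in a short window, and more distant elements were not searched.

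The 10 genes were mostly compact. Their median span in the GENCODE annotation was 4710 bases and their median number of exons 3, against 19318 bases and 7 exons over 21553 protein-coding genes with a 3′ end beyond the coding part. Jun, Junb and Ier2 have a single exon, as 5.80% of these genes do. The letters TATTTAT, the core of the AU-rich element that the protein of Zfp36 binds, occurred after the coding part of 6 members, 3 times in Dusp1 and in Zfp36 itself, 2 times in Fos and once in Fosb, Jun and Atf3. Over the 8919 genes whose end after the coding part was 488 to 2148 bases long, as in the members, 27.8% held the letters at all and 8.06% held them 2 or more times.

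A library held 6499417 to 23118497 counts on genes, with a median of 10447042. Mitochondrial genes took 6.75% to 11.7% of the counts in microglia, 22.4% to 36.7% in OPCs, 22.5% to 45.1% in astrocytes and 45.8% to 60.1% in oligodendrocytes. Rag2 itself had 0 counts in all 21 Rag2-/- libraries and in 19 of 22 immunocompetent ones, with 4 counts at most, so it does not check the genotype labels. Each label of a cell type was checked against 7 or 8 defining markers, and each of the 4 lists was summed highest in its own type. Markers of other types were present in every type. The 8 microglia markers (such as Cx3cr1, P2ry12 and Tmem119) stood at a median of 4.28% of their microglial level in OPCs, 6.71% in oligodendrocytes and 1.57% in astrocytes, with none at 0. Carry-over was larger for other lists, with oligodendrocyte markers at a median of 24.2% of their own level in astrocytes, OPC markers at 14.7% in oligodendrocytes and astrocyte markers at 11.5% in OPCs, and its part in the comparisons among these types was not tested. All levels below are CPM, in which a gene's counts are divided by the library's total after scaling by TMM factors over the 43 libraries (normalised CPM), and all differences are log2 fold changes with their SE from edgeR's quasi-likelihood test, with p adjusted over all genes tested.

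Fos, at chr12:85520658-85524047 in GRCm39, encodes the protein that pairs with Jun to form the transcription factor AP-1. It rose from microglia to astrocytes with 1 step down at oligodendrocytes. Its normalised CPM was 119 at the lowest, 163 at the median and 262 at the highest in the 12 microglia libraries, and 302, 349 and 474 in the 11 OPC libraries. The 8 oligodendrocyte libraries held 197, 240 and 324, and the 12 astrocyte libraries 548, 693 and 858. Every astrocyte library lay above every library of the other types, while oligodendrocytes overlapped both microglia and OPCs. Fos was 2.00-fold higher in astrocytes than in OPCs (log2 1.00, SE 0.10, adjusted p = 1.54e-10) and 4.23-fold higher than in microglia (log2 2.08, SE 0.11, adjusted p = 3.72e-21). It was lower in oligodendrocytes than in OPCs (log2 -0.54, SE 0.12, adjusted p = 2.74e-04). Against microglia it was higher in oligodendrocytes on the TMM scale (log2 0.54, SE 0.11, adjusted p = 5.00e-05) but lower when libraries were scaled to all gene counts, mitochondrial ones included (log2 -0.37).

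Fosb, a relative of Fos at chr7:19036621-19043976, had its highest mean in microglia and its lowest in astrocytes. Its normalised CPM was 562, 769 and 1259 (lowest, median and highest) in microglia and 448, 597 and 798 in OPCs. It was 148, 269 and 469 in oligodendrocytes and 141, 199 and 341 in astrocytes. On the TMM scale the means followed the order of panning downwards, with overlap between each type and the next. With all gene counts the mean was higher in astrocytes (205 CPM) than in oligodendrocytes (186), and with non-mitochondrial counts microglia (1063) and OPCs (1050) were nearly level. Fosb was lower in OPCs than in microglia (log2 -0.49, SE 0.16, adjusted p = 0.00702), a call that was lost with non-mitochondrial counts (log2 -0.04, adjusted p = 0.846) and with all gene counts (log2 -0.37, adjusted p = 0.0590). It was lower in oligodendrocytes than in OPCs (log2 -1.10, SE 0.19, adjusted p = 6.88e-06), and did not pass the test between astrocytes and oligodendrocytes (log2 -0.39, SE 0.18, adjusted p = 0.0651) except without the immunocompetent or the Rag2-/- mouse 6 (log2 -0.43 in each, adjusted p = 0.0345 and 0.0292). So Fos and Fosb, which both pair with Jun, were ordered differently over the same 43 libraries.

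Jun, the partner of both, is at chr4:94937271-94940459 and overlapped among 3 of the 4 types. In normalised CPM, it was at 232, 318 and 524 in microglia, 339, 400 and 430 in OPCs, and 242, 315 and 387 in astrocytes, all overlapping. In oligodendrocytes it was 68.2, 127 and 177, below every library of the other types. The difference between OPCs and microglia was 0.20 on the log2 scale (95% interval -0.03 to 0.44, adjusted p = 0.132) and that between astrocytes and microglia was -0.09 (-0.32 to 0.14, adjusted p = 0.525). Between astrocytes and OPCs it was -0.29 (-0.52 to -0.05, adjusted p = 0.0502). These missed calls depended on the scaling, as OPCs were above microglia by 0.65 (adjusted p = 2.51e-05) and astrocytes below OPCs by -0.55 (adjusted p = 5.59e-04) with non-mitochondrial counts, and by 0.32 (adjusted p = 0.0453) and -0.68 (adjusted p = 1.07e-04) with all gene counts. With all gene counts astrocytes were also below microglia (-0.36, adjusted p = 0.0192), and without the Rag2-/- mouse 6 OPCs were above microglia (0.26, adjusted p = 0.0470). Jun was 2.50-fold higher in astrocytes than in oligodendrocytes (log2 1.32, SE 0.14, adjusted p = 1.15e-10). An antisense gene, Junos, overlaps 16.6% of Jun, and whether the counting used the strand is not given in the sources used here, so their reads cannot be told apart.

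Junb, a Jun relative that can hold back Jun-driven transcription, is at chr8:85701113-85705359 and had its highest level in microglia. Its normalised CPM was 263, 293 and 348 in microglia, but 39.0, 49.3 and 74.7 in astrocytes, 13.2, 26.1 and 37.2 in OPCs, and 7.59, 17.4 and 32.3 in oligodendrocytes. Every microglia library exceeded all the others. Junb was 5.76-fold lower in astrocytes than in microglia (log2 -2.53, SE 0.16, adjusted p = 3.45e-18), 1.97-fold higher in astrocytes than in OPCs (log2 0.98, SE 0.16, adjusted p = 1.68e-06) and 1.45-fold lower in oligodendrocytes than in OPCs (log2 -0.53, SE 0.18, adjusted p = 0.0138). The last call was lost without the immunocompetent (log2 -0.41, adjusted p = 0.0709) or the Rag2-/- mouse 1 (log2 -0.39, adjusted p = 0.0602). Opposite-strand genes, Prdx2 among them, overlap 13.4% of Junb.

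Atf3, a stress-induced transcription factor at chr1:190902493-190950241, differed most between types. In normalised CPM, it was at 733, 945 and 1104 in microglia against 21.9, 34.9 and 67.7 in OPCs, 15.2, 24.4 and 69.0 in oligodendrocytes and 9.63, 17.4 and 29.8 in astrocytes. The lowest microglia library was thus far above the highest library of any other type. Compared with microglia, Atf3 was lower in OPCs (log2 -4.64, SE 0.24, adjusted p = 1.03e-20), 29.1-fold lower in oligodendrocytes (log2 -4.86, SE 0.28, adjusted p = 2.93e-19) and 46.9-fold lower in astrocytes (log2 -5.55, SE 0.24, adjusted p = 1.61e-23). Its mean in OPCs was 4.06% of that in microglia, within the 3.75% to 5.39% of the 8 microglia markers there. In astrocytes its 2.15% also lay within the markers' range of 1.07% to 2.62%, and in oligodendrocytes its 3.505% was below theirs of 5.52% to 10.7%. What part of the Atf3 counts outside microglia came from microglial RNA was not tested.

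Egr1, a zinc finger transcription factor at chr18:34992876-34998049, was also highest in microglia. There its normalised CPM was 1111, 1469 and 2482. It was 313, 428 and 638 in OPCs, 359, 489 and 649 in oligodendrocytes and 148, 223 and 384 in astrocytes. OPCs and oligodendrocytes did not differ beyond their spread (log2 0.11, 95% interval -0.21 to 0.43, adjusted p = 0.616), and astrocytes were below both. Egr1 was 6.03-fold lower in astrocytes than in microglia (log2 -2.59, SE 0.15, adjusted p = 4.67e-19) and 1.87-fold lower than in oligodendrocytes (log2 -0.90, SE 0.16, adjusted p = 6.70e-06). Scaled to all gene counts, the latter difference was -0.26 (adjusted p = 0.147) and that between oligodendrocytes and OPCs was -0.92 (adjusted p = 6.38e-06).

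Nr4a1, an orphan nuclear receptor at chr15:101151980-101172681, was likewise lowest in oligodendrocytes. Its normalised CPM was 114, 132 and 164 in microglia, 108, 143 and 176 in OPCs and 82.3, 140 and 163 in astrocytes. The 8 oligodendrocyte libraries, at 36.8, 45.7 and 67.6, were below all others. None of the 3 differences among microglia, OPCs and astrocytes passed the test, and their 95% intervals lay within -0.31 to 0.27 on the log2 scale. Other scalings gave calls outside these bounds, with 0.52 for OPCs against microglia (adjusted p = 4.35e-05, non-mitochondrial counts), and -0.51 for astrocytes against OPCs (adjusted p = 2.82e-04) and -0.32 for astrocytes against microglia (adjusted p = 0.0101) with all gene counts. Nr4a1 was 2.96-fold lower in oligodendrocytes than in OPCs (log2 -1.56, SE 0.12, adjusted p = 3.38e-14).

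Ier2, a small nuclear protein whose single-exon gene is at chr8:85387960-85389483, had the lowest level per length (all annotated exons merged) in 3 of the 4 types. In normalised CPM, it was at 23.2, 33.1 and 42.8 in microglia, 2.23, 6.14 and 13.1 in OPCs, 2.55, 7.70 and 13.8 in astrocytes, and 0.383, 3.102 and 7.27 in oligodendrocytes. Microglia stood above the rest without overlap. Astrocytes and OPCs did not differ beyond their spread (log2 0.23, 95% interval -0.34 to 0.79, adjusted p = 0.560). Ier2 was 4.74-fold lower in OPCs than in microglia (log2 -2.25, SE 0.30, adjusted p = 1.27e-08). It rested on few counts in oligodendrocytes, with 3 to 52 per library.

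Dusp1, the phosphatase that switches off MAP kinases, is at chr17:26724564-26781102 and had its highest levels in microglia and its next highest in astrocytes. Its normalised CPM was 895, 1033 and 1530 in microglia and 462, 553 and 619 in astrocytes. It was 142, 214 and 330 in oligodendrocytes and 117, 165 and 225 in OPCs. Microglia and astrocytes overlapped neither each other nor the lower types. Dusp1 was 1.97-fold lower in astrocytes than in microglia (log2 -0.98, SE 0.10, adjusted p = 4.80e-11) and 3.23-fold higher than in OPCs (log2 1.69, SE 0.11, adjusted p = 2.29e-16). It was 1.27-fold higher in oligodendrocytes than in OPCs on the TMM scale (log2 0.35, SE 0.12, adjusted p = 0.0165) but lower when scaled to all gene counts (log2 -0.70). With non-mitochondrial counts it turned in direction without passing the threshold. Nor did it pass with the mouse as a block (log2 0.28, adjusted p = 0.0623) or without the immunocompetent mouse 6 (log2 0.21, adjusted p = 0.150). The call was also lost without the filter and with heterozygous controls alone. Counting both directions, it passed in 15 of 20 alternatives.

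Zfp36, which encodes tristetraprolin, a protein that speeds the decay of cytokine and early-response mRNAs, is at chr7:28076209-28079710. In normalised CPM, it was at 1097, 1530 and 2099 in microglia. It was 119, 172 and 282 in astrocytes, 88.3, 99.3 and 231 in oligodendrocytes and 52.9, 76.5 and 149 in OPCs. Microglia again stood apart, and the other 3 types overlapped. Zfp36 was 18.9-fold lower in OPCs (log2 -4.24, SE 0.20, adjusted p = 6.42e-22), 12.1-fold lower in oligodendrocytes (log2 -3.60, SE 0.22, adjusted p = 3.66e-18) and 8.78-fold lower in astrocytes (log2 -3.13, SE 0.18, adjusted p = 3.96e-19) than in microglia. Between oligodendrocytes and OPCs it was higher on the TMM scale (log2 0.64, SE 0.19, adjusted p = 0.00622) and lower, below the threshold, when scaled to all gene counts (log2 -0.36, adjusted p = 0.128). Its 5.42% of the microglial mean in OPCs was just above the 5.39% of the highest microglia marker there, its 8.54% in oligodendrocytes was within their 5.52% to 10.7%, and its 11.6% in astrocytes was above their highest, 2.62%.

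**Figure D1:**
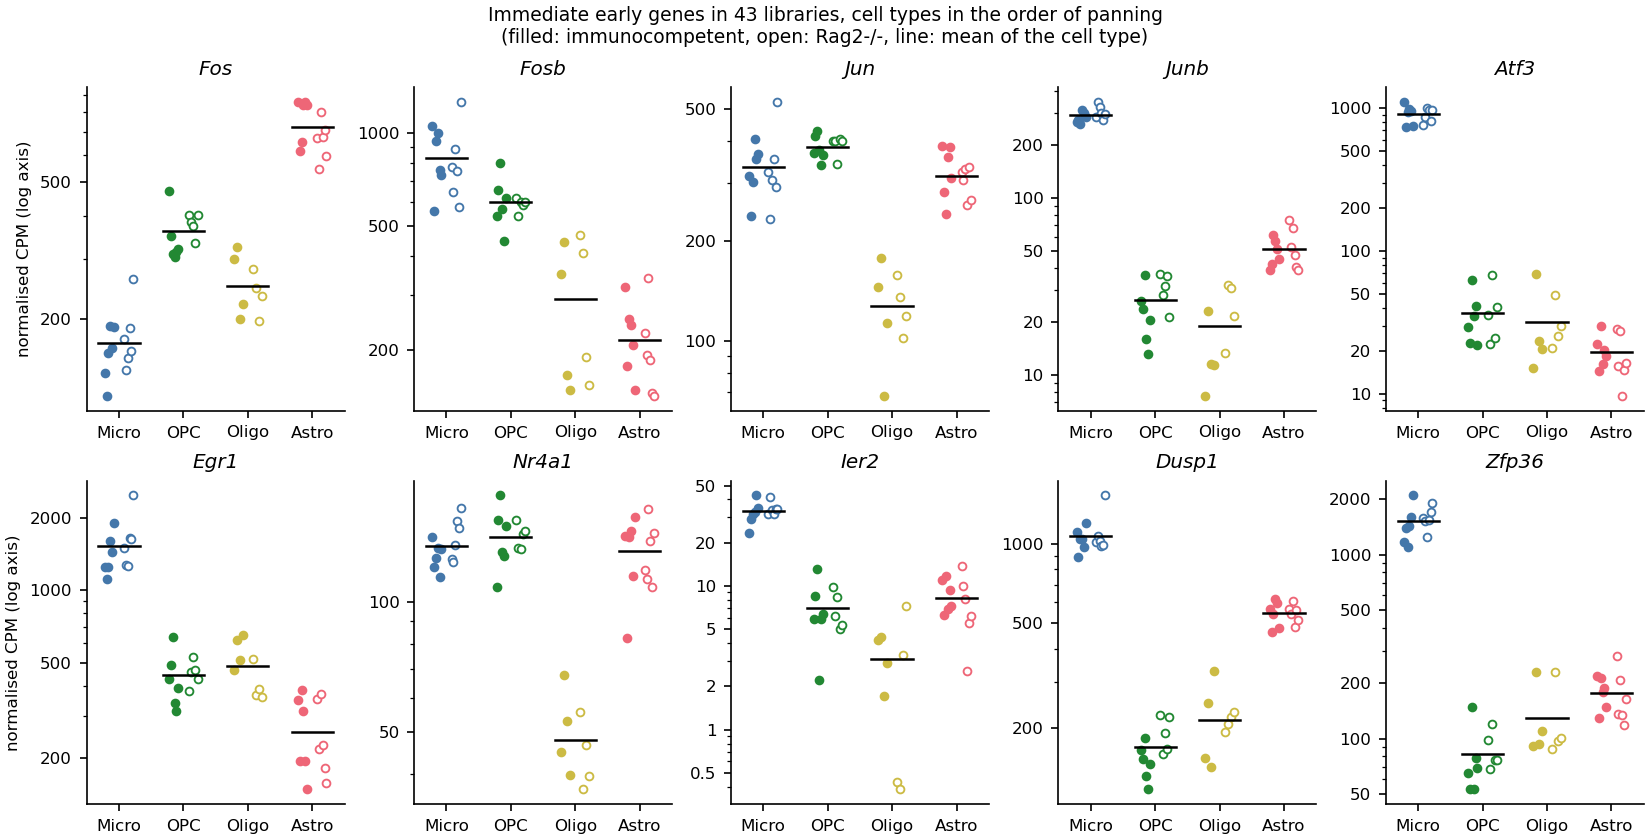
Normalised CPM of the 10 genes (log axis, 1 panel per gene) in the 43 libraries, with the cell types in the order in which they were panned. Filled points are immunocompetent mice, open points Rag2-/- mice and lines the mean of the cell type; Fos is highest in astrocytes, Jun and Nr4a1 drop only in oligodendrocytes, and the other 7 genes have their highest mean in microglia.

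By mean level, 7 of the 10 were highest in microglia, the first type off the plates (Fosb, Junb, Egr1, Ier2, Atf3, Dusp1 and Zfp36). Fos was highest in astrocytes, the last, and Jun and Nr4a1 had their highest mean in OPCs, which did not pass the test against microglia or astrocytes. Oligodendrocytes had the lowest mean of Jun, Junb, Ier2 and Nr4a1, astrocytes that of Fosb, Egr1 and Atf3, OPCs that of Dusp1 and Zfp36, and microglia that of Fos.

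Compared per kilobase of exon, which allows genes to be set side by side, the leading member also changed with the type. The length was that of all annotated exons of a gene merged, so the order of close values depends on the annotation. In microglia Zfp36 led with 435 normalised CPM per kb, before Atf3 (371), Egr1 (340) and Dusp1 (323), and these 4 ranked 26th, 32nd, 36th and 39th of 21627 protein-coding genes. Fos led in OPCs with 153 per kb (20th of all) and in astrocytes with 307 (27th). In oligodendrocytes Egr1 (108 per kb, 67th) and Fos (106, 70th) were nearly level. Each type thus had some early-response transcripts near the top of its protein-coding genes per length, though the leading member was not the same in all. Other members ranked far lower. Ier2 ran from 853rd in microglia to 6971st in oligodendrocytes, and Nr4a1 from 928th in OPCs to 3899th in oligodendrocytes. Junb was 2028th in oligodendrocytes and Atf3 1932nd in astrocytes.

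Counted over the list, microglia stood apart. Against microglia, 7 members were lower and 1 (Fos) higher in OPCs, where 30.8% of all 21368 genes were lower and 38.7% higher. In oligodendrocytes 9 were lower and 1 higher than in microglia, with 34.8% and 33.2% over all genes, and in astrocytes 7 were lower and 1 higher, with 33.5% and 36.5%. The median log2 fold change of the members was -2.02, -2.01 and -1.995 in these 3 comparisons, beside 0.18, -0.09 and 0.09 over all genes. Between oligodendrocytes and OPCs 2 members (Zfp36 and Dusp1) were higher and 6 lower, against 15.7% and 25% of all genes. Astrocytes had 4 members above OPCs (Fos, Junb, Dusp1 and Zfp36) and 3 below (Fosb, Egr1 and Atf3), against 17.1% and 25.4%. They had 7 above oligodendrocytes and 2 below (Egr1 and Atf3), against 24% and 25.7%. With all gene counts neither was below (Egr1 adjusted p = 0.147, Atf3 adjusted p = 0.732), and Atf3 also lost its call without pair 3 or its immunocompetent mouse. Of the 7, Zfp36 (log2 0.46) lost its call with heterozygous controls alone (log2 0.47, adjusted p = 0.0655) and without the immunocompetent or the Rag2-/- mouse of pair 1 or 6 (log2 0.39 to 0.45, adjusted p from 0.0692 to 0.111). The counts are of a list chosen by name with earlier results of these data known, and cells of different types differ at most genes, so the shares over all genes give the scale.

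**Figure D2:**
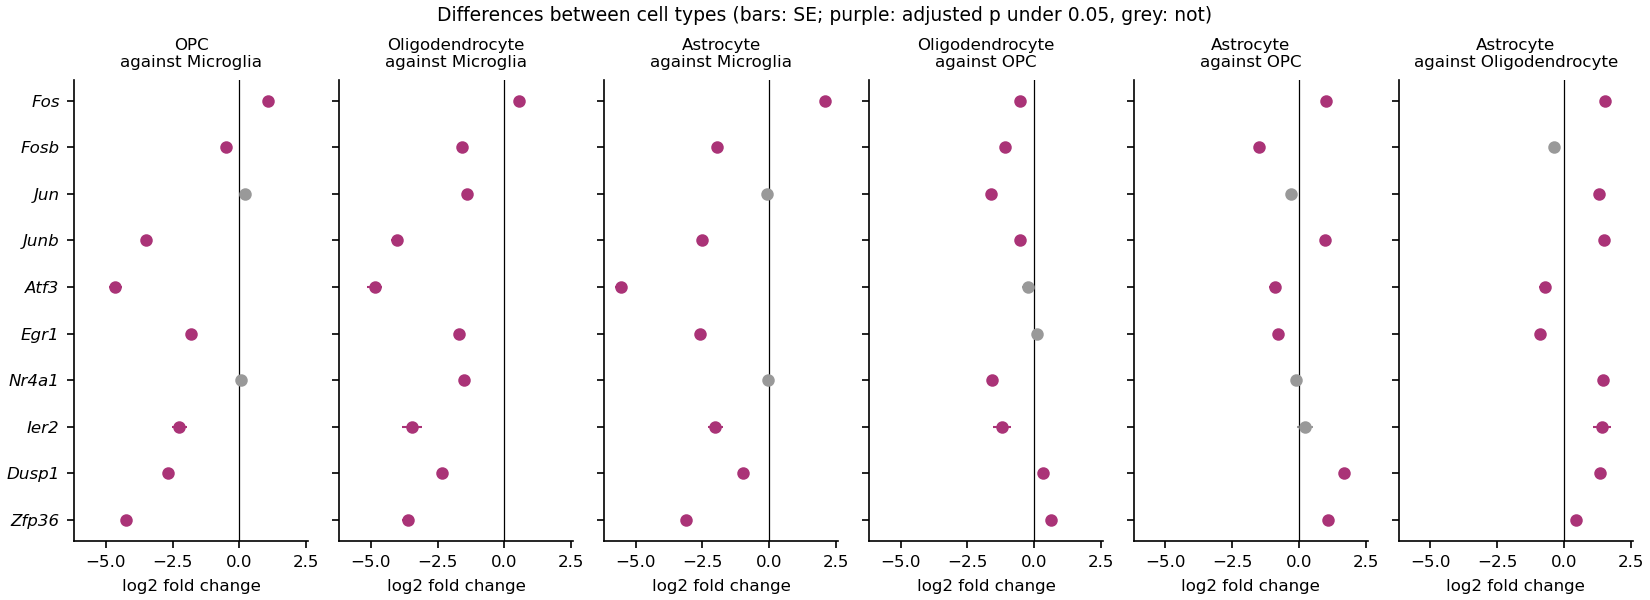
Log2 fold change with its SE for the 10 genes in each of the 6 comparisons between cell types. Purple points passed the test and grey ones did not; in the 3 panels against microglia the points of Fos lie to the right of 0 (for oligodendrocytes on the TMM scale used here, but not when scaled to all gene counts) and those of Atf3, from -5.55 to -4.64, lie farthest to the left.

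A wider list of 44 early-response genes was treated in the same way. Of these, 33 were lower and 6 higher in OPCs than in microglia, 34 and 6 in oligodendrocytes, and 32 and 8 in astrocytes, with list medians of -1.71, -2.20 and -2.14. Over all genes, 30.8% were lower and 38.7% higher in OPCs, 34.8% and 33.2% in oligodendrocytes, and 33.5% and 36.5% in astrocytes. Those with the smallest p among the lower genes were Rhob, a small GTPase, Gadd45b, a stress sensor, Ier5, and Nfkbiz, a regulator of NF-κB target genes. Ier5 had a mean of 774 normalised CPM in microglia and 30.8 in astrocytes (log2 -4.65, SE 0.19, adjusted p = 1.57e-24). Nfkbiz had 655 and 30.0 (log2 -4.48, SE 0.20, adjusted p = 1.19e-22). Tnfaip3, which restrains NF-κB, had 1207 in microglia, 40.3 in OPCs and 7.48 in astrocytes, and was lower in astrocytes than in OPCs (log2 -2.44, SE 0.32, adjusted p = 2.45e-08).

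Some genes of that list were, like Fos, higher in astrocytes. Ccn1, a secreted matrix protein induced through SRF and YAP, had 3.27 normalised CPM in microglia, 56.0 in OPCs, 12.8 in oligodendrocytes and 304 in astrocytes, and the step from microglia to astrocytes was a log2 of 6.51 (SE 0.34, adjusted p = 8.22e-21). Gadd45g rose from 16.7 in microglia to 83.3 in astrocytes (log2 2.33, SE 0.23, adjusted p = 8.41e-12). Btg2, an antiproliferative gene, was at 103.8 in astrocytes against 19.7 in OPCs and 201 in microglia, and the step from OPCs to astrocytes passed the test (log2 2.39, SE 0.19, adjusted p = 3.44e-14). Between astrocytes and OPCs 7 of the 44 were higher and 23 lower, against 17.1% and 25.4% of all genes. Between astrocytes and oligodendrocytes 13 were higher and 15 lower, against 24% and 25.7%.

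Arc, Npas4 and Sgk1 had their highest mean in oligodendrocytes. Arc and Npas4, known for their induction in active neurons, were at 98.7 and 18.4 normalised CPM there, against 9.16 and 2.10 in microglia (log2 3.41, SE 0.31, adjusted p = 7.15e-13 for Arc, and log2 3.15, SE 0.40, adjusted p = 6.00e-09 for Npas4). The list of 10 neuron markers was also highest in oligodendrocytes, with a summed level of 1442 to 4219 normalised CPM against 619 to 1470 in OPCs, 280 to 799 in astrocytes and 151 to 293 in microglia, and its part in these values was not tested. Sgk1, a kinase induced by glucocorticoids, had 173 in oligodendrocytes and 63.5 in OPCs (log2 1.44, SE 0.20, adjusted p = 1.40e-07). Egr3, a relative of Egr1, had 108.5 in microglia, 66.6 in oligodendrocytes and 8.44 in astrocytes (log2 -3.03 in astrocytes, SE 0.27, adjusted p = 2.30e-12). Between oligodendrocytes and OPCs, 9 of the 44 were higher and 22 lower, against 15.7% and 25% of all genes.

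The 23 genes upstream, which encode the kinases and transcription factors that start the response, were counted in the same way, and the shares over all genes are those given for the members. Against microglia, 6 were higher and 13 lower in OPCs, 7 and 11 in oligodendrocytes (33.2% and 34.8% of all genes), and 5 and 15 in astrocytes (36.5% and 33.5%). Creb1, the factor that binds the CREB site, had 134 normalised CPM in microglia, 45.2 in OPCs, 60.9 in oligodendrocytes and 34.1 in astrocytes (astrocytes against microglia log2 -1.98, SE 0.11, adjusted p = 1.06e-19). Elk3 fell from 77.9 in microglia to 3.05 in astrocytes (log2 -4.67, SE 0.32, adjusted p = 6.19e-17). Mrtfb, a partner of SRF, was at 21.2 in microglia and 190 in oligodendrocytes (log2 3.15, SE 0.17, adjusted p = 8.19e-20). Mapk3, which encodes the kinase ERK1, was at 32.8 in OPCs and 123 in oligodendrocytes (log2 1.89, SE 0.14, adjusted p = 1.86e-14). Oligodendrocytes had 9 of the 23 above OPCs and 1 below, where 15.7% of all genes were above and 25% below. Astrocytes had 3 above and 12 below OPCs, and 2 above and 15 below oligodendrocytes.

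No member passed the test of genotype in any type. The adjusted p was 0.998 or more for all 40 values. The percentage of all genes called by genotype was 0.00667% in microglia (1 of 15003 genes), 0.00592% in OPCs (1 of 16882), 0% in oligodendrocytes (0 of 13802) and 0.00679% in astrocytes (1 of 14725) in edgeR's test, with 435, 679, 467 and 423 genes at an unadjusted p under 0.05. In microglia the 10 log2 fold changes (Rag2-/- over immunocompetent) ran from -0.01 for Atf3 to 0.18 for Egr1, and the widest 95% interval, that of Fosb, was -0.33 to 0.33. In astrocytes they ran from -0.20 for Fos (95% interval -0.41 to 0.01), which was higher in the Rag2-/- mouse in 1 of 6 pairs, to 0.15 for Junb.

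A pair of members in OPCs had an unadjusted p under 0.05. Dusp1 was at 117, 150 and 183 normalised CPM (lowest, median and highest) in the 6 immunocompetent libraries and at 225, 160, 192, 166 and 221 in the Rag2-/- libraries of pairs 1, 2, 3, 4 and 6. It was higher in the Rag2-/- mouse in 5 of 5 pairs, with overlap of the groups (log2 0.36, 95% interval 0.12 to 0.61, with an adjusted p = 1.00 from edgeR). Junb was at 13.2, 21.98 and 36.8 in the immunocompetent libraries and at 37.2, 28.4, 31.7, 36.2 and 21.2 in the Rag2-/- ones (log2 0.46, 95% interval 0.06 to 0.87). Its adjusted p was 1.00 in edgeR as well. In oligodendrocytes Junb was higher in the Rag2-/- mouse in 4 of 4 pairs, at 13.3, 32.3, 30.9 and 21.5 against 7.59, 22.96, 11.6 and 11.3 in pairs 1, 3, 5 and 6, with a log2 of 0.85 (95% interval -0.19 to 1.89). Ier2 had the widest interval there, -4.74 to 1.00 around a log2 of -1.87. Its Rag2-/- libraries were at 0.429, 0.383, 3.30 and 7.27 and its immunocompetent ones at 4.23, 4.39, 1.70 and 2.91. Egr1 in oligodendrocytes was at 517, 366, 388 and 359 in the Rag2-/- libraries and at 465.9, 620, 512 and 649 in the immunocompetent ones, which was lower in the Rag2-/- mouse in all pairs but pair 1 (log2 -0.45, 95% interval -0.85 to -0.045, adjusted p = 0.998 in edgeR). Its unadjusted p was 0.0504 in that test, so this interval was too narrow to be read as excluding 0. In microglia Egr1 was higher in the Rag2-/- mouse in 6 of 6 pairs, by a log2 of 0.18 (95% interval -0.14 to 0.49).

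Whether the genotype difference itself varied between the 4 types was tested with an F test in the fit of all libraries. No member passed it, against 0.248% of all genes (53 of 21368), and without adjustment no member was under 0.05 either. Junb came closest (adjusted p = 0.544 in edgeR).

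**Figure D3:**
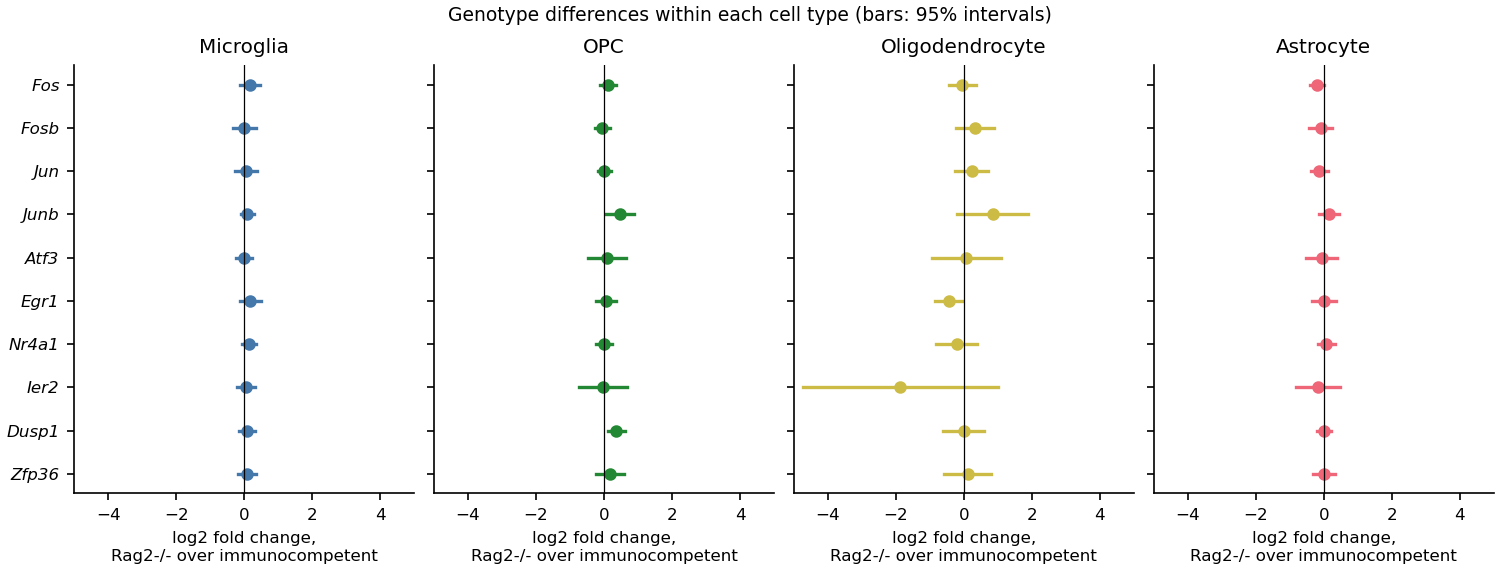
Log2 fold change of Rag2-/- over immunocompetent mice with its 95% interval for the 10 genes in each cell type. Most intervals cross 0, and the points farthest from it are those of Ier2 (-1.87) and Junb (0.85) in oligodendrocytes, where the interval of Ier2, from -4.74 to 1.00, is the widest.

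Both mice of a pair were littermates. Whether members varied between pairs more than within them was tested in each type with genotype and pair as terms. Sex was nearly fixed by pair and was not a term, so differences between pairs and between the sexes cannot be told apart here. Egr1 passed in astrocytes (adjusted p = 0.00791 in edgeR) and in microglia (adjusted p = 0.0381). No other member passed in any type, and the share of all genes that passed was 0.127% in microglia, 0.472% in OPCs (without pair 5, which has 1 library), 0.0362% in oligodendrocytes and 0.523% in astrocytes. At an unadjusted p under 0.05 there were 6 members in microglia, 2 in OPCs, 3 in oligodendrocytes and 5 in astrocytes in edgeR. DESeq2 called 4, 2, 2 and 5. The shares over all genes without adjustment or in DESeq2 are not given here, so these counts are not read as particular to the members. In microglia Dusp1, at an unadjusted p of 0.0406 in edgeR's F test, ranked only 1129th of 15003 genes.

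The Egr1 levels of astrocytes came in close pairs. The immunocompetent and the Rag2-/- mouse had 350 and 353 normalised CPM in pair 1, 195 and 220 in pair 2 and 384 and 372 in pair 3. They had 313 and 226 in pair 4, 196 and 182 in pair 5 and 148 and 157 in pair 6. Pairs 1 and 3 were high and pair 6 was low. In microglia the order of the pairs was another one, with 1248 and 1498 in pair 1, 1111 and 1267 in pair 2, 1242 and 1259 in pair 3, 1598 and 1640 in pair 4, 1439 and 1633 in pair 5 and 1911 and 2482 in pair 6. Here pair 6 was the highest and pair 2 the lowest. Over the 12 libraries Egr1 had an r of 0.86 with the microglia markers and 0.70 with the endothelial markers in astrocytes, and of 0.73 with the neuron markers and 0.59 with the endothelial markers in microglia, and their part in the pair differences was not tested. Leaving out pair 2, 3, 4, 5 or 6 left no member past the test in microglia, and leaving out pair 1 left 2.

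**Figure D4:**
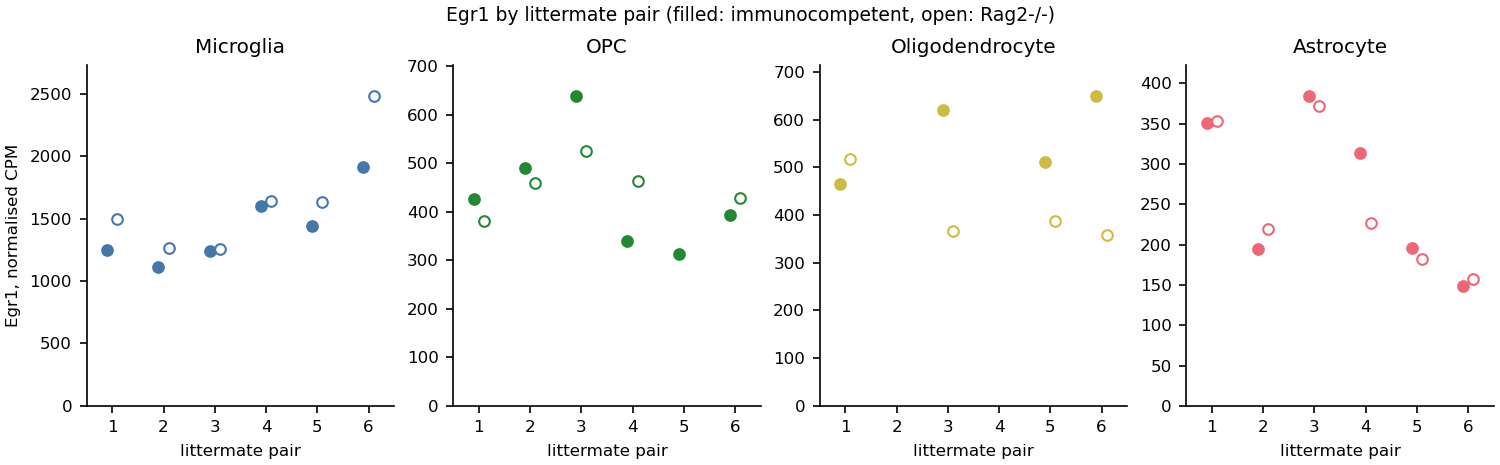
Egr1 in normalised CPM (linear axis from 0, own scale in each panel) by littermate pair, with filled points for immunocompetent and open points for Rag2-/- mice. Both mice of pair 6 are the highest in microglia (1911 and 2482) and the lowest in astrocytes (148 and 157).

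The 4 types of a mouse came from 1 cell suspension. To see whether a mouse with a high level in 1 type also had one in another, the log2 level of each member was correlated over mice between each pair of types, 60 correlations in all. Pearson's r was positive in 30 of the 60, with a median of 0.004 and a range of -0.79 to 0.87. No correlation passed the adjustment over the 60 (smallest adjusted p = 0.310, permutation test), and 6 had an unadjusted p under 0.05. The permutations moved mice singly and did not remove genotype. Littermates thus counted as independent, though they shared levels within types, so the unadjusted p-values can be too small. With deviations from the genotype mean 34 of the 60 were positive, and none passed the adjustment either. For Atf3 between OPCs and oligodendrocytes r was 0.87 (exact permutation p = 0.0149, adjusted p = 0.310) and Spearman's rho 0.89 (exact p = 0.0123, adjusted p = 0.308) over 7 mice, and r was 0.98 without the 2 mice farthest from the median. For Jun between OPCs and astrocytes r was -0.78 and rho -0.79 over 11 mice (permutation p = 0.00552 for both, adjusted p = 0.310 and 0.308), and r was -0.80 without the 2 farthest. Between OPCs and oligodendrocytes 8 of 10 members had a positive r with a median of 0.42, and between microglia and the other types 3 to 5 of 10 did. No other genes were set beside these counts, so they are not read as particular to the members. Over libraries Atf3 also had an r of 0.86 in OPCs and 0.83 in oligodendrocytes with the microglia markers, whose part was not tested.

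Within a type, most pairs of members had a positive correlation from library to library. Over the 45 pairs of members, deviations from the mean of type and genotype had a median r of 0.47 in astrocytes (44 of 45 positive, 12 libraries), 0.47 in OPCs (39 positive, 11 libraries), 0.40 in microglia (36 positive, 12 libraries) and 0.28 in oligodendrocytes (33 positive, 8 libraries). These libraries share depth and scaling, no other gene pairs were set beside them, and the values are descriptions. The closest were Fos and Jun, with r of 0.96 in microglia and 0.94 in oligodendrocytes. In microglia Fos and Egr1 had 0.93, and in astrocytes Fosb and Egr1 had 0.91. Some members had a median r with the 9 others near 0, namely Fos in OPCs (-0.07), Ier2 in oligodendrocytes (-0.08) and in microglia (0.02), and Junb in microglia (0.0066).

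The genes most like the members over the 43 libraries, by Pearson's r of such deviations with the mean of the 10 members, were Klf10 (0.68), Arhgap22 (0.68), Egfl6 (0.66), Tgfb1 (0.65), Tlr13 (0.65), Ctc1 (0.64), Socs3 (0.64), Emp1 (0.64), Ptbp1 (0.63) and F13a1 (0.62), out of 11306 genes with a mean of at least 5 normalised CPM over all 43 libraries. A gene could pass this filter through the type where it was high, and its r then rests in part on deviations near the floor. Klf10 and Socs3 belong to the wider list of 44, and F13a1 to the markers of border macrophages. All of these 10 genes but Egfl6 had their highest mean in microglia, by unequal margins. Tgfb1, Tlr13 and F13a1 had means of 295, 182 and 87.2 normalised CPM in microglia and of 1.39 to 22.2 in the other types. Ctc1 had 29.7 in microglia and 14.7 to 19.9 in the other types, and Emp1 had 12.5 and 1.19 to 9.50. Arhgap22 had 38.9 in microglia and only 0.295 to 2.26 in the other types. Egfl6 went the other way, with 0.112 in microglia, 3.26 in OPCs, 0.825 in oligodendrocytes and 23.95 in astrocytes.

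The microglia markers were unevenly spread over the pairs, and several members moved with them. The summed level of the 8 microglia markers was highest in both libraries of pair 3 in OPCs (954 and 1009 normalised CPM, against 177 to 452 in the others), in oligodendrocytes (1269 and 1186, against 307 to 777) and in astrocytes (339 and 297, against 77.6 to 235). In the same OPC libraries Atf3 was at 62.8 and 67.7, against 21.9 to 41.1 in the others, and Zfp36 at 149 and 119, against 52.9 to 98.5. In oligodendrocytes the pair 3 libraries had 69.0 and 49.4 of Atf3, against 15.2 to 29.6, and 229 and 231 of Zfp36, against 88.3 to 109. In OPCs and oligodendrocytes both members were thus highest where the microglia markers were highest. In astrocytes they were not in every case, with Zfp36 at 218 and 282 in pair 1 against 213 and 209 in pair 3, and Atf3 at 22.3 and 28.5 in pair 1 against 29.8 and 27.4 in pair 3. Over libraries the log2 level of Atf3 had an r with that of the marker list of 0.86 in OPCs (n = 11), 0.83 in oligodendrocytes (n = 8) and 0.68 in astrocytes (n = 12), and that of Zfp36 had 0.64, 0.76 and 0.70. In astrocytes the values of Egr1 (0.86), Junb (0.78) and Fosb (0.71) were higher still, while Fos had 0.02. Other lists moved alike. In astrocytes pair 3 was also highest in OPC markers (318 and 313), endothelial markers (42.7 and 32.8) and border macrophage markers (23.4 and 22.4). There r with the endothelial list was 0.76 for Junb, 0.64 for Atf3 and 0.57 for Fosb, but -0.15 for Fos. In oligodendrocytes Zfp36 had an r of -0.71 with the neuron markers and of -0.75 with the mitochondrial percentage. The part of microglial or other RNA in these levels was not tested.

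**Figure D5:**
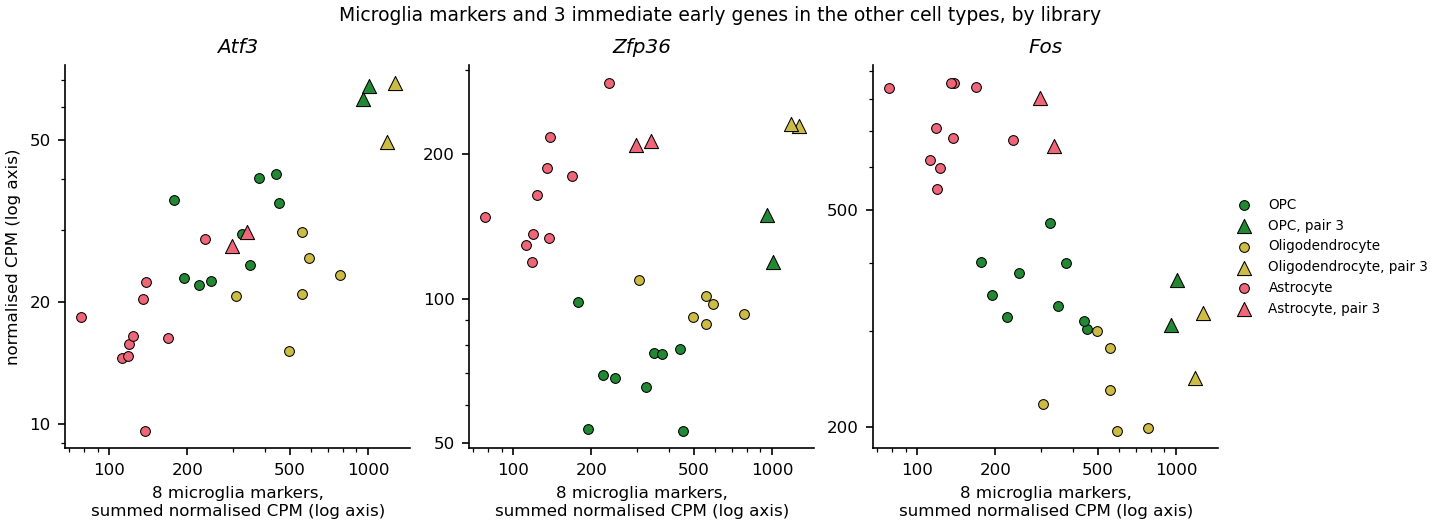
Normalised CPM of Atf3, Zfp36 and Fos against the summed normalised CPM of 8 microglia markers (both axes log) in the OPC, oligodendrocyte and astrocyte libraries, with triangles for pair 3. In OPCs and oligodendrocytes the triangles of Atf3 and Zfp36 lie at the top right, while those of Fos lie within the range of the other libraries or, for 1 oligodendrocyte library (324), at its upper end.

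Without pair 3, an alternative chosen after seeing these values, these differences were as follows. The difference of Atf3 between astrocytes and oligodendrocytes was then -0.28 on the log2 scale (SE 0.18, adjusted p = 0.202), in place of -0.69 (SE 0.22, adjusted p = 0.00936). Zfp36 was higher in astrocytes than in oligodendrocytes by 0.86 (SE 0.16, adjusted p = 3.23e-05), in place of 0.46 (SE 0.19, adjusted p = 0.0415). The drop of both from microglia was larger without the pair, with Atf3 at -4.91 in OPCs and -5.34 in oligodendrocytes and Zfp36 at -4.53 and -4.06. The difference of Ier2 between oligodendrocytes and OPCs was -0.90 (SE 0.37, adjusted p = 0.0525), in place of -1.21 (SE 0.34, adjusted p = 0.00470).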

How the data were processed

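The authors aligned reads with STAR 2.7.8a to GRCm39 and deposited HTSeq counts per gene for each library (per the labels and the submitters' processing notes). The counting mode and strand setting are not given in the sources used here. The 5 summary lines of HTSeq were left out of library sizes and held 33.5% to 52.0% of read pairs per library. Of the 55416 gene IDs, 54749 matched GENCODE M39.

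Genes were kept by edgeR's filter (count 10, total 15). Cell types were compared in 1 edgeR 4.0.16 quasi-likelihood fit of the 43 libraries (R 4.3.3) with TMM factors, terms for group and sex, and contrasts averaged over genotypes. Genotype was tested within each type with sex as a term, and genotype by type and littermate pair by F tests, at an adjusted p of 0.05. Intervals are 1.96 SE to each side, which with few libraries is narrower than the quasi-likelihood test itself gives. Fits were tested on simulated data. Correlations over mice used 100000 permutations of single mice, regardless of littermate pair, or all of them where n was 8 or less. DESeq2 1.42.0, other scalings, no filter, blocks, heterozygous controls alone and left-out mice, replicates or pairs were alternatives.

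Same-numbered mice are littermates by the labels. Their deviations had a mean correlation of 0.178 in microglia (6 of 6 pairs over 0.1), 0.177 in OPCs (3 of 5), 0.127 in oligodendrocytes (1 of 4) and 0.209 in astrocytes (4 of 6). The members and lists were chosen with earlier results of these data known. Named were the members, up to 3 genes of smallest p per list, comparison and direction, and the 10 genes most correlated with the members' mean.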

Additional observations from a re-analysis of the deposited data

Results flagged for a closer look

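In 9 of 80 groups of 4 to 6 libraries (1 gene in 1 cell type and genotype), the most extreme library lay apart from the others by Dixon's test, in which chance gives about 1 in 20. The value given is the gap to the nearest library as a share of the range of the group.

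Pair 3 held 5 of the 9. In oligodendrocytes its immunocompetent library was highest for Atf3 (69.0 normalised CPM, share 0.849) and for Zfp36 (229, share 0.869), and its Rag2-/- library was highest for Zfp36 (231, share 0.911). In OPCs its immunocompetent library was highest for Zfp36 (149, share 0.735), and its Rag2-/- library was lowest for Jun (341, share 0.923). The microglia markers were summed highest in the pair 3 libraries of both types, and their part was not tested.

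In microglia the Rag2-/- library of pair 6 was highest for Egr1 (2482, share 0.688) and Dusp1 (1530, share 0.841). The Rag2-/- library of pair 2 was highest there for Ier2 (41.4, share 0.738). In OPCs the immunocompetent library of pair 1 was highest for Fos (474, share 0.727).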

How the results depend on the processing

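Of 1200 values of a member in a comparison of cell types under an alternative, 1144 kept their direction and their side of the threshold, 23 turned in direction, 19 lost the call and 14 gained it. Of 670 values of a member by genotype, 94 turned in direction, and none was called. Scaling had the widest reach, and the cause was not tested. With libraries scaled to all gene counts, the median log2 fold change of all genes went from -0.24 to -1.25 between oligodendrocytes and OPCs, and from -0.09 to -0.98 between oligodendrocytes and microglia. Scaled to non-mitochondrial counts, it went from 0.18 to 0.63 between OPCs and microglia. The genes called higher and lower went from 8265 and 6592 to 10340 and 4755 there under the latter, and between oligodendrocytes and OPCs from 3356 and 5347 to 2080 and 8853 under the latter and 990 and 13644 under the former.

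With all gene counts, the log2 difference was -0.37 for Fos between oligodendrocytes and microglia. Between oligodendrocytes and OPCs it was -0.92 for Egr1, -0.70 for Dusp1 and -0.36 for Zfp36. It was -0.19 for Ier2 between astrocytes and OPCs and 0.21 for Fosb between astrocytes and oligodendrocytes. With non-mitochondrial counts, it was 0.11 for Jun and 0.15 for Nr4a1 between astrocytes and microglia, -0.29 for Egr1 and -0.0599 for Dusp1 between oligodendrocytes and OPCs, and -0.0367 for Ier2 between astrocytes and OPCs. For Nr4a1 between OPCs and microglia it was -0.01997 with DESeq2, -0.0198 with its size factors and -0.0032 without pair 3. With 1 mouse left out, Nr4a1 ran from -0.0253 to 0.0879 between OPCs and microglia, from -0.0744 to 0.0236 between astrocytes and microglia and from -0.14 to 0.0435 between astrocytes and OPCs, and Jun from -0.11 to 0.0063 between astrocytes and microglia.

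The members higher in OPCs than in microglia were 3 with non-mitochondrial and 2 with all gene counts, and 1 to 2 with a mouse left out (2 without the Rag2-/- mouse 6). Of all 21368 genes, 10340 and 8700 were higher there under these scalings, against 8265 on the TMM scale. The members higher in oligodendrocytes than in microglia were 0 with all gene counts, where 4643 of all genes were higher, against 7096 on the TMM scale. The members higher in oligodendrocytes than in OPCs were 0 with either scaling, 1 without the filter, 1 with heterozygous controls alone, 1 with the replicate block of the mouse, and 1 to 2 with a mouse left out (1 without the immunocompetent mouse 6). Of all genes, 2080 were higher with non-mitochondrial and 990 with all gene counts, against 3356 on the TMM scale. They were 3466 of 39266 without the filter, 2980 of 21755 with heterozygous controls alone and 2782 of 21368 with the block. The members lower in astrocytes than in OPCs were 5 with either scaling. Of all 21368 genes, 7618 were lower there with non-mitochondrial and 8792 with all gene counts, against 5436 on the TMM scale. The members lower in astrocytes than in oligodendrocytes were 0 with all gene counts, 1 without pair 3, and 1 to 3 with a mouse left out (1 without the immunocompetent mouse 3). Of all genes, 3087 of 21368 were lower there with all gene counts, against 5482 on the TMM scale. They were 4698 of 21756 without pair 3 and 4906 of 22055 without the immunocompetent mouse 3.

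The members called between pairs were 0 in microglia with non-mitochondrial counts, and 0 to 2 with a pair left out. Without the filter they were 5 in microglia, 2 in OPCs, 2 in oligodendrocytes and 3 in astrocytes, and with DESeq2 4, 2, 2 and 5. The shares over all genes under these settings are not given here. In OPCs they were 0 to 1 with a pair left out (1 without pair 6). Over all genes, 53 passed the test of genotype by type, 1011 without the filter, 430 with DESeq2 and 34 with the replicate block. The replicate block of the littermate pair left 0 members called by genotype in each type, and all 134 counts of members called by genotype under the alternatives were 0. Ier2 in oligodendrocytes rested on 3 to 52 counts per library.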
